A study of Caenorhabditis elegans with 2 samples.

Results

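The genes described here encode the respiratory chain of mitochondria in the nematode Caenorhabditis elegans, sorted by complex. They were chosen by name among the nuclear protein-coding genes of the Ensembl annotation of WBcel235: names starting with nuo-, ndu, cox-, atp- or sdha- to sdhd-, plus cyc-1, ucr-1, ucr-2.1, isp-1, gas-1, asb-1, asb-2, asg-1 and asg-2. The rule gave 64 of 19973 genes, of which 32 belong to complex I, 4 to complex II, 4 to complex III, 15 to complex IV and 9 to complex V. What was measured at them is binding of CEH-82, a homeobox protein, by chromatin immunoprecipitation and sequencing (ChIP-seq). The material was whole L1 larvae, the first larval stage, of mixed sex and of strain OP212, with the allele unc-119(ed3) III and the transgene ddEx58, which carries ceh-82 joined to enhanced green fluorescent protein (eGFP). There was 1 group, of 2 biological replicates, and no untagged or input sample was analysed here. The name ddEx58 denotes an extrachromosomal array, which can be lost from some cells and can hold several copies, and whole larvae mix all tissues. Binding therefore cannot be assigned to a cell type, and values from a larva-wide average cannot tell binding in a few cells from weak binding in many.

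The respiratory chain sits in the inner mitochondrial membrane and turns the energy of food into ATP. Complex I (NADH dehydrogenase) and complex II (succinate dehydrogenase, also an enzyme of the citrate cycle) pass electrons to ubiquinone, complex III hands them to cytochrome c, complex IV (cytochrome c oxidase) gives them to oxygen, and complex V (ATP synthase) uses the resulting proton gradient to make ATP. In worms the chain is known from mutants such as isp-1, nuo-6 and gas-1, in which altered electron transport changes lifespan, growth rate or sensitivity to volatile anaesthetics. Most subunits are encoded in the nucleus, and a few core subunits are encoded in mitochondrial DNA and lie outside the rule. Nuclear subunits under names that the rule does not list lie outside it as well. Counts per complex therefore cover the listed names and not whole complexes.

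The sequences below show what lies under the summits of the binding sites on which the results turn. Each holds a summit of the optimal list and 50 bases on either side of it. The optimal list is the authors' list of peaks thresholded by the irreproducible discovery rate. Not all of its peaks are among the strongest of both replicates. The sequences are read 5' to 3' on the coding strand of the named gene from the RefSeq genome of WBcel235 (ce11). No annotated exon lies in any of these windows. The strongest such window of each complex was chosen, and further windows show some of the short sequences counted below. TAATTA and CAGCTG are in none of the printed windows. The strongest complex IV window, upstream of cox-5A, is chrIII:12905150-12905250 on the plus strand, and the window shared by nduc-2 of complex I and cox-6B of complex IV is chrIII:2785995-2786095 on the plus strand. The ndub-8 window is chrII:13872659-13872759 (plus), that of atp-2 chrIII:5228108-5228208 (plus), that of asb-2 chrX:4469448-4469548 (plus) and that of nduf-11 chrII:11345756-11345856 (minus). The window of ucr-1 in complex III is chrIII:5591907-5592007 (plus) and that of sdhd-1 in complex II chrII:11050057-11050157 (minus). Capitals mark GCGCAG or its complement CTGCGC (nduc-2 and cox-6B, atp-2), CACGTG (ndub-8), GAGAGA (asb-2) and both a GCGCGT, the complement of ACGCGC, and a GGCGCGT, which also holds the complement of CGCGCC (nduf-11). The other windows hold none of the sequences searched by design. The counts below reach 100 bp from the summit, further than these windows. They include GAGAGA at cox-5A, ndub-8 and sdhd-1, and TAATTA at cox-5A, which lie outside the printed bases.
cox-5A: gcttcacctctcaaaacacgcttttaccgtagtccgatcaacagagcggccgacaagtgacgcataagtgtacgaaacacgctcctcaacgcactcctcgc
nduc-2 and cox-6B: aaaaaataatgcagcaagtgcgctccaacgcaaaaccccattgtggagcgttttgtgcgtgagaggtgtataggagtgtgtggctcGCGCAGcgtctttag
ndub-8: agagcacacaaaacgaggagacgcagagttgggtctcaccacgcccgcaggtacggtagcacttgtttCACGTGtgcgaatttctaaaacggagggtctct
atp-2: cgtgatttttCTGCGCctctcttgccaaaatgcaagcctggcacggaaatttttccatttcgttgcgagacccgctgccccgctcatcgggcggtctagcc
asb-2: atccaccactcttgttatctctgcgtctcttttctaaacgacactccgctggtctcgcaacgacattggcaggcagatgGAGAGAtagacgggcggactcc
nduf-11: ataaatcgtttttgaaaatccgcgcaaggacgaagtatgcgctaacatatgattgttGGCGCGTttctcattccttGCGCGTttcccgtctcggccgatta
ucr-1: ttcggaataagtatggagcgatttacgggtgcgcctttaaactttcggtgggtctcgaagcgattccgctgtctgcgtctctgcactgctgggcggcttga
sdhd-1: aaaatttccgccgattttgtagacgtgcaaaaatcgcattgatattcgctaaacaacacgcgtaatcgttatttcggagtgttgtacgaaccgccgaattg

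The respiratory chain genes were bound far more often than protein-coding genes in general. A gene was called bound when a summit of the optimal list lay between 1000 bp upstream and 200 bp downstream of the annotated 5' end of any of its transcripts. By this measure 42 of 64 members (65.6%) were bound, against 3201 of all 19973 genes (16.0%). When each replicate's own 3913 strongest peaks were used in place of the optimal list, which also holds 3913 peaks, 43 members were bound in replicate 1 (background 16.0%) and 40 in replicate 2 (background 15.7%), a share of 64.8% ± 3.31 (SD, n = 2), and 39 members were bound in both. The gap to the background was larger than the spread between replicates. With 1 group and no second condition no test over samples can be run, genes are not replicates, and the shares are given without p-values.

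All complexes lay above the background, at different levels. Complex III had 4 of 4 genes bound and complex V 8 of 9 (88.9%). Complex IV had 9 of 15 (60%), complex I 19 of 32 (59.4%) and complex II 2 of 4 (50%). The replicates' own lists gave 21 and 19 bound genes of complex I, 8 and 9 of complex IV, and 8 and 6 of complex V, so the order of complexes I and IV changed between replicates. When a summit counted only for the gene with the nearest 5' end, 27 members were bound (background 11.9%), with 6 of 9 in complex V, 2 of 4 in III, 13 of 32 in I, 5 of 15 in IV and 1 of 4 in II, so the order of the complexes changed. Complexes II and III have 4 genes each, and their shares move by 25 percentage points with a single gene.

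**Figure D1:**
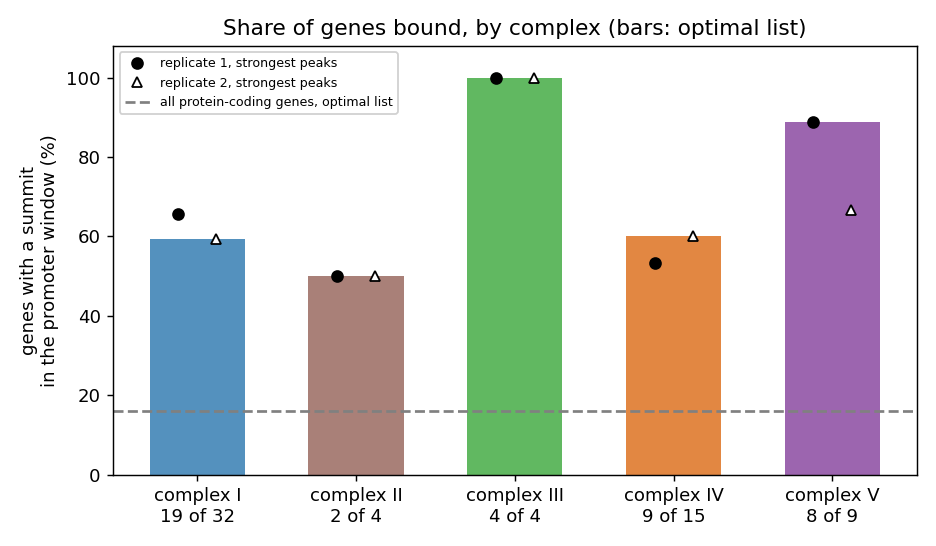
Bars show the share of genes (%) in each complex with an optimal summit in the promoter window, with counts under each bar, and the dashed line is the share over all protein-coding genes (16.0%). Circles and triangles are the shares from the strongest peaks of replicate 1 and replicate 2, which lie above the line in every complex and differ most in complex V.

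Peaks at bound members were also stronger than most. The signal is a value per peak given by the authors' caller; it depends on depth, so values from different replicates are not compared. The 42 bound members had a median signal of 87.9, against 63.8 over all bound genes. Their 42 distinct peaks (nduc-2 and cox-6B share 1, and cox-6B has 2) had a median of 84.1, against 60.7 for the 2479 optimal peaks in any protein-coding promoter window and 55.7 for the whole list, whose signals run from 27.6 to 595.3. Of these 42 peaks, 20 (47.6%) were among the 979 strongest of the optimal list and 4 among the 978 weakest. Of all peaks in protein-coding windows, 30.3% were among the strongest 979. Among the 100 strongest optimal peaks, 81 lay in protein-coding promoter windows. Of these, 5 lay at 6 members, namely cox-5A, cox-6B with nduc-2, cox-5B, atp-1 and ndua-8. The peaks at cox-6B with nduc-2, atp-1 and ndua-8 also lie in windows of genes outside the chain.

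In complex I, 6 of the 8 genes of the catalytic core and 13 of 24 accessory genes (54.2%) were bound. The strongest peak, with a signal of 324 in the optimal list, 193 in replicate 1 and 130.3 in replicate 2, lay 807 bp upstream of nduc-2, an accessory subunit. It is the peak that also lies 157 bp upstream of cox-6B, the gene whose end overlaps the start of nduc-2, and also in the window of Y71H2AM.20, whose start is the nearest of the 3, so it cannot be assigned to either member. The peak at ndua-8, another accessory subunit, had a signal of 269, with 179 and 88.1 in the replicates. It lay 245 bp upstream of ndua-8, nearer to the start of rbc-2 on the other strand, and also in the window of Y54F10AM.15. At ndub-8, an accessory subunit of the membrane arm, the signal was 180.4, with 107 and 72.7 in the replicates. Its summit lay 160 bp upstream, also in the window of cup-14. These 3 peaks ranked 32, 57 and 196 of 3913 in the optimal list and kept ranks of 33, 46 and 210 in replicate 1 and 30, 104 and 189 in replicate 2.

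Among core subunits the highest values were at nduf-2.2 and nuo-1. nduf-2.2, a copy of the 49 kDa iron-sulfur subunit, had a signal of 155, with 87.3 in replicate 1 and 70.1 in replicate 2. Its summit lay 781 bp upstream and closer to the start of dlc-1, a dynein light chain gene. nuo-1, the flavoprotein that takes up electrons from NADH, had 151, with 95.2 and 55.2, from a summit 294 bp upstream in the gap to rpl-36.A, a ribosomal protein gene. The other bound core genes were nuo-2 (signal 63.2), nduf-7 (62.2), nduv-2 (56.2) and ndus-8 (53.5). All 4 lie in the middle of the list. nuo-2 was the most uneven of them, with rank 1203 in replicate 1 and rank 3301 in replicate 2. The remaining bound accessory genes ran from 136 at nduf-11, with 80.9 and 53.2 in the replicates and a summit 186 bp upstream in no other gene's window, through nduv-3 (89.7), ndua-1 (70.9), ndub-3 (69.7), nduf-9 (57.5), ndua-5 (56.2), nuo-3 (55.0), ndua-2 (49.2) and nduf-6 (42.9) down to ndua-13 (42.2). The median over the bound genes of complex I was 63.2, the lowest of the 5 complexes and close to the 63.8 of all bound genes.

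In complex II, sdha-1, the flavoprotein subunit that oxidises succinate, had a signal of 124, with 69.4 in replicate 1 and 55.4 in replicate 2, and a summit 214 bp upstream. sdhd-1, a membrane anchor subunit that binds haem, had 41.0, with 27.6 and 12.3, and a summit 194 bp upstream, nearer to ilkp-1 on the other strand. sdhb-1, the iron-sulfur subunit, and sdha-2 had no optimal summit. The sdhd-1 peak ranked 3637 of the 3913 peaks kept for replicate 2, close to the end of that list.

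In complex III, cyc-1, which encodes cytochrome c1, had a signal of 155, with 80.3 and 74.7 in the replicates, and a summit 317 bp upstream in no other gene's window. ucr-1, a core protein of the complex, had 95.6, with 55.1 and 42.1, 178 bp upstream. isp-1, the Rieske iron-sulfur protein, had 87.3, with 44.9 and 41.0, 267 bp upstream. ucr-2.1, also a core protein, had 80.9, with 47.7 and 30.9, 265 bp upstream. All 4 ranked in the stronger part of every list, and the last 3 share their peaks with the divergent neighbours ddx-15, islo-1 and nmat-1. The starts of islo-1 and nmat-1 are nearer to these summits than those of isp-1 and ucr-2.1.

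In complex IV the structural subunits and the assembly factors, taken as the genes named cox-10 and above, are given separately. Of the 7 structural subunits 6 were bound (85.7%, and 6 in each replicate), with a median signal of 204. Of the 8 assembly factors 3 were bound (37.5%), with 2 in replicate 1 and 3 in replicate 2. The difference was not tested, and it went with gene arrangement: all 5 unbound factors, and no structural subunit, follow a gene on the same strand within 500 bp. The 3 bound factors have a divergent neighbour. cox-5A had the highest signal of all members, 339, with 206 and 132 in the replicates, at a summit 291 bp upstream in no other gene's window (peak on chromosome III, 12905106 to 12905275). cox-6B followed with 324 from the peak shared with nduc-2. It had a further summit of signal 62.1, 717 bp upstream of a 5' end annotated about 86 kb away, in the window of slc-30A9. cox-5B, the subunit also known as cco-1 and often depleted to lower respiration in worms, had 297, with 187 and 109.5, and a summit 14 bp upstream. cox-4 had 111, with 66.7 and 43.9, 463 bp upstream. cox-6C had 60.4, with 32.4 and 28.2, in the gap to grld-1 and nearer to the start of grld-1. cox-6A, with 28.5, lay just inside the list, 851 bp upstream, and cox-7C was not bound.

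Among assembly factors, cox-14 had a signal of 113, with 54.2 in replicate 1 and 57.0 in replicate 2, at a summit nearer to rde-4, a gene of the RNA interference pathway. cox-10, which makes the haem intermediate of the complex, had 76.8, with 38.1 and 40.1, about 100 bp upstream. cox-16 had 28.6, with 11.0 and 18.3, and its peak, ranked 6288 in replicate 1, was not among that replicate's strongest. The unbound factors were cox-11 and cox-17, which deliver copper, cox-15, which acts in haem a synthesis, cox-18 and cox-19.

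In complex V, atp-1, the alpha subunit of the catalytic head, had a signal of 276, with 175 in replicate 1 and 100.7 in replicate 2, at a summit 18 bp upstream. atp-2, the catalytic beta subunit, had 178, with 113 and 65.7, at a summit 259 bp upstream. atp-3, the oligomycin sensitivity protein of the stalk, had 186, with 101.4 and 87.7, 29 bp upstream. asb-2, a b subunit of the stalk, had 162, with 99.6 and 61.7, 268 bp upstream in no other gene's window. atp-5, the d subunit, had 99.5, with 57.3 and 41.1, in the gap to lmtr-3 and nearer to the start of lmtr-3. These 5 genes stood above the median of 63.8 of all bound genes. Of the other bound genes, asg-2, a g subunit, had 88.4, its copy asg-1 had 34.5 and atp-4, coupling factor 6 of the stalk, had 32.8. The last 2 were not among the strongest peaks of replicate 2. The peaks of atp-1 (mcrs-1), atp-2 (C34E10.10 and C34E10.12), atp-3 (F27C1.2) and asg-2 (glr-6) also lie in the windows of the genes in brackets. That of asg-1 is shared with mrps-15, whose start is nearer.

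**Figure D2:**
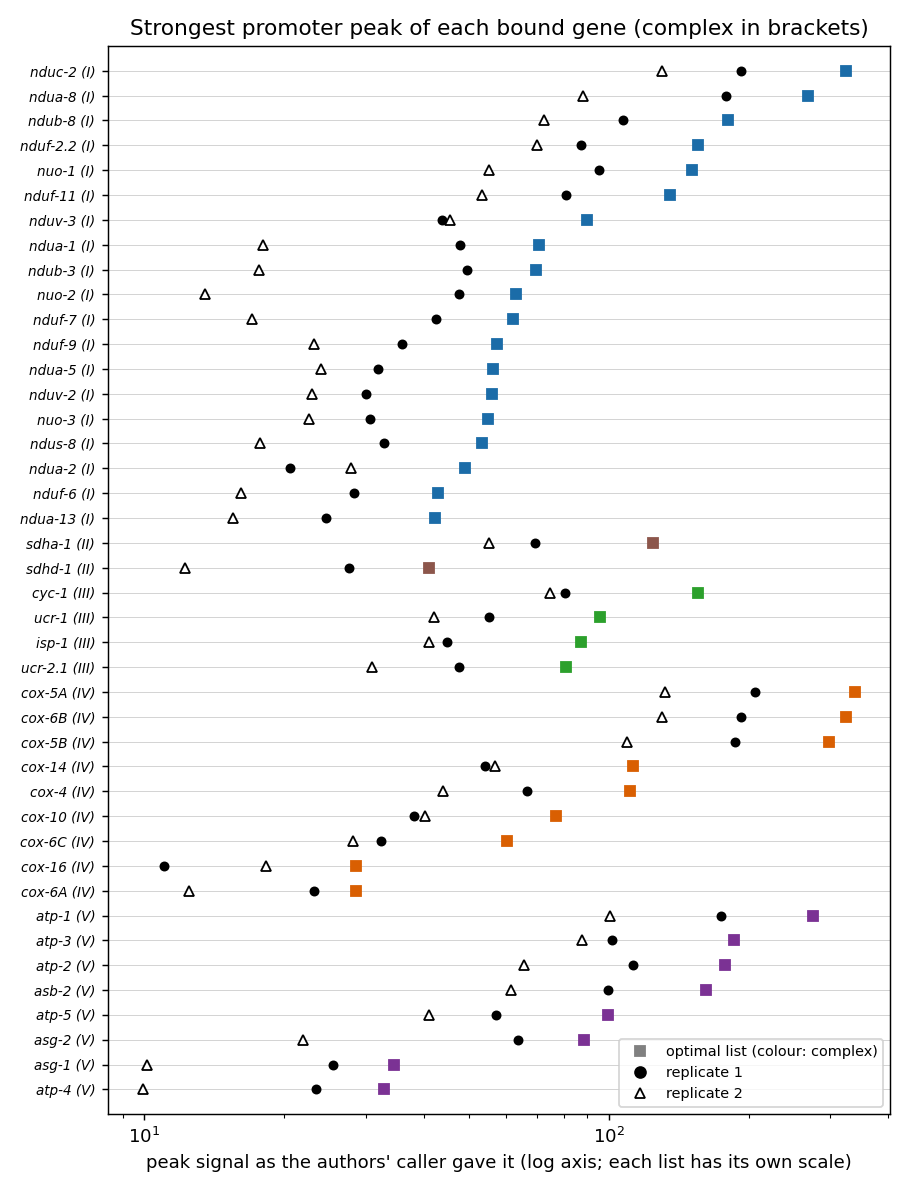
Each row is a bound gene with its complex in brackets; squares give the signal of its strongest promoter peak in the optimal list, circles the signal in replicate 1 and triangles that in replicate 2, on a log axis where each list has its own scale. The cox-5A, cox-6B, nduc-2, cox-5B, atp-1 and ndua-8 rows lie furthest to the right in all 3 lists, and cox-16 is the row with the lowest replicate 1 signal.

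Of the 22 unbound members, 13 belong to complex I, 2 to complex II, 6 to complex IV and 1 to complex V. In complex I these were the core genes gas-1 and nuo-5 and the accessory genes ndua-7, ndua-12, ndub-2, ndub-5, ndub-6, ndub-7, ndub-10, ndub-11, nduf-5, nuo-4 and nuo-6. Among all unbound members 11 had a weaker peak of the pooled list, the longer list of 16974 peaks called on both replicates together, in their window, with signals from 12.5 to 27.1, against 3530 of all 16772 unbound genes (21.0%). The other 11 had none. The 3913 optimal peaks have the summits and signals of the 3913 strongest pooled peaks, so these values share a scale. Those at the edge were close to each other: cox-6A (28.5) and cox-16 (28.6) lay just inside the optimal list, whose lowest signal was 27.6, and ndub-7 (27.1, pooled rank 3974) and gas-1 (25.6, rank 4155) lay just outside it. ndub-7 and gas-1 were both among the strongest peaks of replicate 1 and neither was among those of replicate 2. The remaining 20 unbound genes were in none of the 3 lists used for calls.

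The nearest optimal summit lay within a few kb of some unbound genes and far from others. The longest distances, from the gene's outer 5' end, were 48980 bp at sdhb-1, 29585 bp at cox-17, 19721 bp at cox-19, 17173 bp at ndua-7 and 16649 bp at ndub-6. It was 14517 bp at cox-7C, 14439 bp at ndub-2, 12120 bp at nuo-6, 10857 bp at ndub-7, 10347 bp at gas-1 and 10276 bp at ndub-5. These 11 genes had no optimal summit within 10 kb. The summit lay 8474 bp from asb-1, 6145 bp from ndua-12, 6091 bp from ndub-11 (the isp-1 peak), 4371 bp from nuo-5, 4226 bp from cox-15, 3643 bp from cox-11 and 3104 bp from cox-18. It was closest at nuo-4 (2957 bp downstream), sdha-2 (1597 bp), ndub-10 (1253 bp) and nduf-5 (1238 bp), the last 3 of which have it just upstream of the window. Expression was not analysed here, and an unbound gene is only a gene without an optimal summit in its window.

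Where a subunit has a pair of gene copies, the copies often differed. For the b subunit of ATP synthase, asb-2 had a signal of 162, and asb-1, known as the germline form, had no peak of any list in its window. For the succinate dehydrogenase flavoprotein, sdha-1 had 124 and sdha-2 had no peak of any list in its window. For the 49 kDa subunit of complex I, nduf-2.2 had 155 from the peak nearer to dlc-1, and gas-1, the gene known from anaesthetic-sensitive mutants, had a pooled peak of 25.6 that reached the strongest peaks of replicate 1 (19.2) but not those of replicate 2 (7.31). For the g subunit of ATP synthase both copies were bound, asg-2 with 88.4 and asg-1 with 34.5.

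The summits at members lay at the distance usual for bound genes. The median position was 240 bp upstream of the nearest annotated 5' end, against 223 bp upstream over all bound genes. Of 42 members 40 (95.2%) had the summit upstream, and 18 (42.9%) had it within 200 bp, against 45.1% of all bound genes. Positions ran from 851 bp upstream at cox-6A to 6 bp downstream at nuo-3, and 3 members (cox-6A, nduc-2 and nduf-2.2) had it over 500 bp away. Many worm messages are trans-spliced, so an annotated 5' end can be a splice site downstream of the true start. At 27 of 42 members the strongest peak was shared with the window of another protein-coding gene (64.3%, against 51.1% of all bound genes). At 15 members another gene's start was nearer. The gene's own start was nearest at the other 27 members, and at 2374 of all 3201 bound genes.

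**Figure D3:**
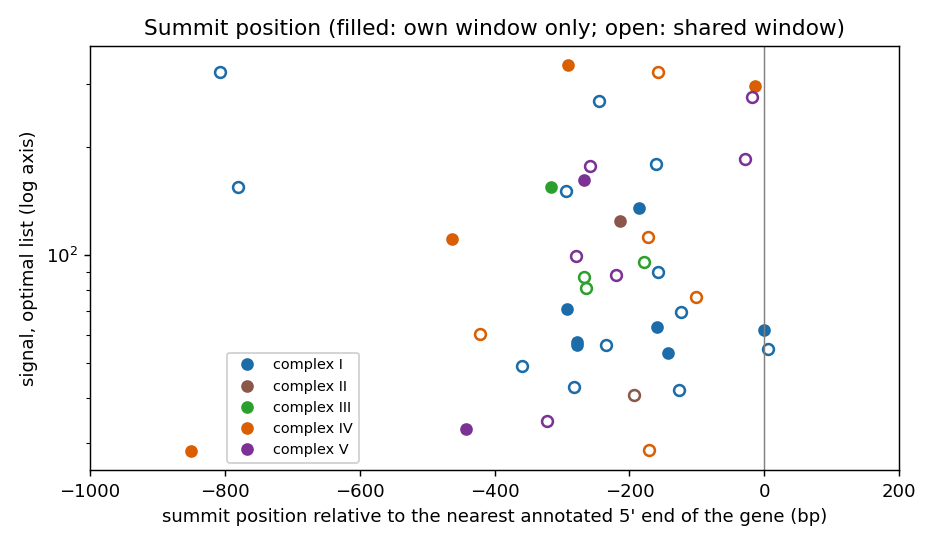
Each point is a bound member, with the position of its strongest summit relative to its nearest annotated 5' end (bp) on the horizontal axis and the signal in the optimal list on a log axis; filled points lie in that gene's window only and open points in more than 1 gene's window. Points cluster between 100 and 300 bp upstream in all complexes, and 3 lie over 500 bp upstream.

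The arrangement of the neighbouring genes went with binding. At 33 of 64 members (51.6%, against 21.3% of all genes) the nearest upstream neighbour ran the other way from a start within 1000 bp, and 25 of these 33 were bound (75.8%, against 33.6% of all genes so placed). At 19 members (29.7%, against 20.5%) a gene on the same strand ended within 500 bp upstream, and 6 of 19 were bound (31.6%, against 10.8%). A neighbour whose body reached past a gene's 5' end was also counted in these groups, by strand, wherever it started or ended. Among members this was so only for nduc-2, but the counts over all genes include such overlaps. At the remaining 12 members (18.8%, against 58.2%) neither held, and 11 of 12 were bound (91.7%, against 11.5%), nduf-5 being the exception. The 3 shares over all genes were themselves different, so the share of members bound has to be read within each arrangement, and in each it was above the share over all genes. Among these 11 genes, which include cox-5A, cox-5B, asb-2 and cox-4, nduf-2.2 alone shares its peak with the window of another protein-coding gene.

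**Figure D4:**
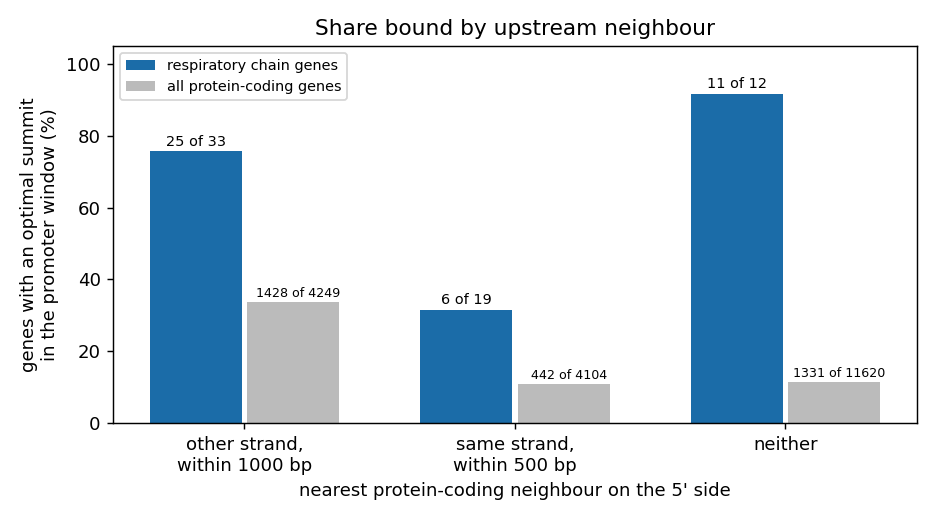
Bars give the share of genes (%) with an optimal summit in the promoter window, for respiratory chain genes (blue) and all protein-coding genes (grey), by the nearest protein-coding neighbour on the 5' side, with counts above the bars. Members exceed all genes in each arrangement, and their share is lowest where a same-strand gene ends within 500 bp.

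Unbound members fell mostly into that same-strand group. It holds 13 of the 22, against 3662 of all 16772 unbound genes. A pooled peak lay in the window of 3 of these 13 (18.5% of all unbound genes so placed). All 8 unbound members with a divergent neighbour had a weaker pooled peak (22.9% of all unbound genes so placed). Genes spaced this closely on a strand can be co-transcribed in worms from a promoter ahead of the first gene, but operons are not in the annotation used, so only spacing is described. Following the same-strand genes upstream, each ending within 500 bp of the next, the first gene of the run was bound for 8 of the 13 unbound members (61.5%, against 30.7% over all unbound genes so placed). Over all 19 members so placed, bound or not, it was bound for 11 (57.9%, against 32.5% of all genes so placed). A bound first gene was thus not particular to unbound members. These runs were traced after the values had been seen. The run of cox-11 starts at lin-54, whose peak is shared with rpl-12 (signal 386) and lies 3643 bp upstream of cox-11. The run of cox-18 starts at Y55F3AR.2, which shares a peak of 302 with cct-8, and that of nuo-4 at syf-2 (199). nuo-4 also has a pooled peak of 12.5 of its own. For ndua-12 the first gene was ubxn-2 (131), for nuo-5 Y45G12B.2 (128.9), for cox-15 rpn-9 (127), for ndub-10 exos-3 (43.4) and for sdha-2 another member, ndua-13 (42.2). For ndua-7, ndub-2, cox-17, cox-19 and asb-1 the first gene was not bound. Counting a member as bound through its run gave 50 of 64, where the same count over all genes gave 21.6%.

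Genes with several annotated 5' ends have more windows. Of 54 members with 1 annotated 5' end 33 were bound (61.1%, against 13.0% of all such genes), and of 10 with more 9 were bound (90%, against 24.0%). By chromosome the share bound was 11 of 14 on III, 11 of 18 on I, 6 of 11 on II, 5 of 10 on IV, 5 of 6 on V and 4 of 5 on X, each above the share of all genes on that chromosome, which ran from 10.1% on V to 24.5% on III.

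GA repeats lay under a smaller share of member summits than of all optimal summits. GAGAGA, searched on either strand up to 100 bp from the summit, occurred at 9 of 42 member peaks (21.4%) and in flanks 300 to 400 bp away at 6 (14.3%). Over all optimal peaks it occurred at 47.5%, over those in protein-coding windows at 40.4%, and in windows of the same length at the promoters of all genes at 16.3%. The members' own promoters were also below that share, with GAGAGA at 3 of 42 bound (7.14%) and 2 of 22 unbound members (9.09%). The longest uninterrupted run of alternating G and A had a median of 5 bp at member peaks and at peaks in protein-coding windows, and of 6 bp over all optimal peaks. It reached 7 bp at the 42 member peaks and 84 bp among all 3913. Within 50 bp of the summit, GAGAGA was at 4 member peaks (9.52%), against 32.3% of all optimal peaks and 27.6% of those in protein-coding windows. Within 100 bp it was found at 3 of 19 peaks of complex I, 2 of 2 of complex II, 1 of 4 of complex III, 2 of 10 of complex IV and 1 of 8 of complex V, the last being asb-2, whose site is capitalised above. Shares over peaks and members were not tested, since peaks of a list are not replicates.

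TAATTA, the core recognised by many homeodomain proteins, was at 5 of 42 member peaks (11.9%) and in 6 flanks (14.3%). It was at 3.91% of all optimal peaks, in 10.9% of their flanks and at 11.9% of promoters of the same length. CACGTG, the E-box, was at 1 member peak, that of ndub-8 (2.38%), and in 5 flanks, against 5.37% of all optimal peaks and 4.23% of promoters. CAGCTG was at 3 member peaks (7.14%) and in 3 flanks, against 5.65% of all and 3.44% of promoters. GCGCAG was at 5 member peaks (11.9%) and in no flank, against 11.0% of all and 2.66% of promoters. It was held by 4 of the 10 peaks of complex IV, namely both cox-6B peaks and those of cox-6A and cox-6C. These letters say where a sequence occurs and not what binds there.

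**Figure D5:**
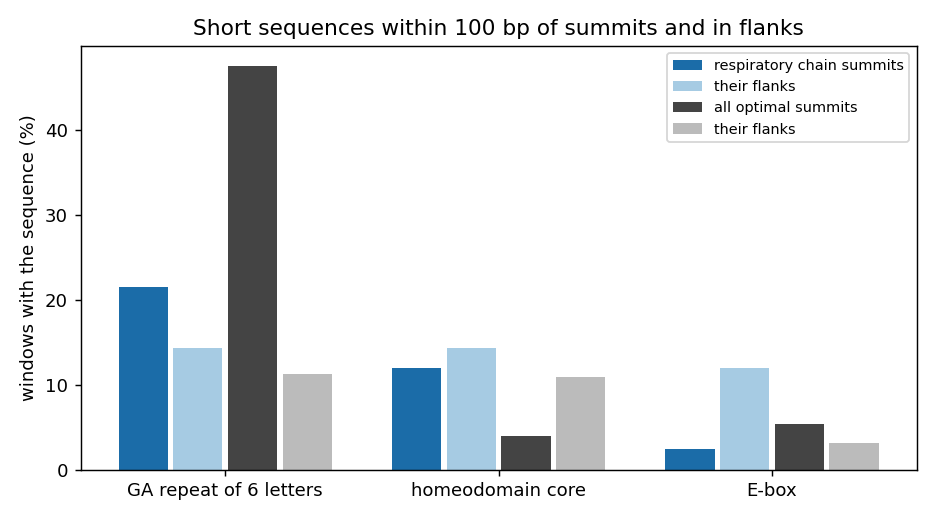
Bars give the share (%) of windows within 100 bp of summits, and of flanks 300 to 400 bp away, that hold the GA repeat of 6 letters, the homeodomain core or the E-box, for member peaks (blue) and all optimal peaks (grey and black). The GA repeat is at 21.4% of member summits and 47.5% of all optimal summits, and the homeodomain core is no more frequent at summits than in flanks in either set.

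Short sequences rich in CG also occurred at member peaks. The share with any of 5 such sequences was near that of all peaks in protein-coding windows, while single sequences lay above or below. Ranked by their frequency over flanks at the 1445 peaks in protein-coding windows that hold no GAGAGA and belong to no member, among sequences held by at least 10% of those peaks, the leading 6-letter sequence was ACGCGC. It was followed by GCGCGC, then by CGCGCG, then by AGCGCG and, last of the 5, by CGCGCC, and these overlap each other. At the member peaks, left out of that ranking, ACGCGC occurred at 12 of 42 (28.6%) and in no flank, against 24.9% of the ranking peaks and 4.34% of promoters of the same length. CGCGCC also occurred at 12 (28.6%, 1 flank), against 18.2% of the ranking peaks. GCGCGC was at 7 (16.7%, against 15.6%), AGCGCG at 5 (11.9%, against 19.1%) and CGCGCG at 4 (9.52%, against 10.7%). Any of the 5 was at 16 peaks (38.1%), against 4.76% of flanks, 33.4% of all optimal peaks and 39.3% of those in protein-coding windows. The nduf-11 window above has ACGCGC in both capitalised stretches. Member windows held a median of 12 CG pairs (8.5 in flanks) and 41.0% G and C, against 11 pairs (6 in flanks) and 44.3% over all optimal peaks.

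The replicates gave the same picture at most members. Of the 42 member peaks 39 (92.9%) overlapped a peak among the 3913 strongest of each replicate, against 80.4% of all optimal peaks and 83.3% of those in protein-coding windows. The optimal list was itself drawn from both replicates, so these shares are partly fixed. Between replicates, the signals of these 42 peaks were correlated with a Spearman coefficient of 0.859, against 0.804 over 2472 peaks in protein-coding windows, a description across peaks that share libraries and a control. The 3 exceptions were cox-16, low in replicate 1, and asg-1 and atp-4, low in replicate 2.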

How the data were processed

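The authors deposited peak lists per replicate (24014 and 30000 peaks), on pooled replicates (16974) and an optimal list (3913), thresholded by the irreproducible discovery rate, in narrowPeak format on ce11 and ce10. Each deposited list gives a signal value per peak and a q-value as −log10, as the authors' caller wrote them. The deposited −log10 q-values have a ceiling of 3.82, reached by 39 of the 42 member peaks, so peaks were ranked by signal and then q-value. Per the deposited read-me files, a single control alignment served both replicates, whose shared errors would then appear in both. Neither the aligner nor the caller nor the IDR cut-off is given in the sources used here. Lists on ce10 were not used. Read depth is unknown, so no interval that needs it is given.

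Genes came from Ensembl release 115 and sequence from the RefSeq genome of WBcel235. A replicate's strongest peaks were its first 3913 by signal. Peaks overlapped when they shared 1 bp. Computation used Python 3.11.15 with numpy 2.4.6, scipy 1.17.1 and matplotlib 3.10.9, and the scripts were tested on simulated data with known answers. The labels call the samples biological replicates. No p-values were computed over genes or peaks.

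The members, gene lists, sequences and comparisons were chosen with earlier results of these data known. All members are named. The 5 of highest signal in each complex, or all in smaller ones, have values in all 3 lists. Printed sequences follow that order among windows free of exons and off chromosome I. The asb-2 and nduf-11 windows were added after their values were seen. Alternatives were promoter windows of 500 and 2000 bp, the 1956 strongest optimal peaks, the pooled list, each replicate alone, peak midpoints, overlap in place of summits, the nearest 5' end only, exclusion of assembly factors, reciprocal overlap of 50%, full replicate lists and a motif window of 50 bp.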

Additional observations from a re-analysis of the deposited data

How the results depend on the processing

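The bound count of the chain stayed within 1.5 times of 42 under all alternatives but the strictest assignment. It was 39 with a window of 500 bp (background 13.1%), 45 with 2000 bp (20.3%), 32 with the stronger part of the optimal list (9.41%), 53 with the whole pooled list (33.7%), and 42 with midpoints or overlap. When a summit counted only for the gene with the nearest 5' end, 27 were bound (background 11.9%), with complex II at 1, complex III at 2 and complex IV at 5. With the stronger part of the optimal list complex II had 1. Leaving out a replicate gave 40 to 43 in all, 19 to 21 in complex I, 2 to 2 in II, 4 to 4 in III, 8 to 9 in IV and 6 to 8 in V, and 9 to 9 peaks with GAGAGA. Within 50 bp of the summit GAGAGA was at 4 member peaks, against 32.3% of all optimal peaks. Without assembly factors 39 of 56 genes were bound. Peaks held in both replicates numbered 31 with reciprocal overlap of 50% and 42 with full lists. Tracing same-strand runs, added after seeing the data, gave 50. No paired analysis was possible because there was 1 group. Signals depend on unknown depth, small complexes move with single genes, and no second control or untagged strain was analysed here.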

Other observations

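Other genes of mitochondrial pathways, taken from lists of names, were bound at different shares beside the 16.0% of all genes. Of 20 citrate cycle genes 13 were bound (65%, and 13 in each replicate), led by dld-1 (signal 295), a subunit shared by several dehydrogenases, aco-2 (187), the mitochondrial aconitase, and sucl-1 (171), a succinyl-CoA ligase subunit. This list was taken by enzyme name and not by place in the cell. It also holds aco-1, idh-1 and mdh-1, of which idh-1 (32.8) was bound, so its share is not limited to mitochondrial enzymes. Of 70 mitochondrial ribosomal protein genes 35 were bound (50%, with 36 and 31 in the replicates), led by mrps-7 (252), mrpl-28 (215) and mrpl-49 (165), the last from a peak shared with rpl-28. Of 13 import genes 6 were bound, led by tomm-20 (176) of the outer membrane and timm-23 (162) and timm-17B.1 (95.4) of the inner membrane. Of 8 genes of coenzyme Q synthesis only coq-3 (77.1) was bound, and clk-1 was not.

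Of 9 carrier and inhibitor genes 4 were bound. The adenine nucleotide carrier ant-1.1 had a signal of 285 and its relatives ant-1.2, ant-1.3 and ant-1.4 had no optimal summit. Of the cytochrome c genes cyc-2.1 (54.3) was bound and cyc-2.2 was not, and both ATP synthase inhibitor genes, mai-2 (86.0) and mai-1 (83.9), were bound. Of 5 assembly factors outside the naming rule sco-1 (230.4), which delivers copper to complex IV, and nuaf-1 (60.4), a complex I factor, were bound. Of 8 genes of the mitochondrial stress response 5 were bound, the chaperones hsp-60 (219) and hsp-6 (134), the protease clpp-1 (130.1), the regulator atfs-1 (75.1) and ubl-5 (37.6).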
